A study of Mus musculus with 12 samples.

Results

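The 10 lipid-associated macrophage genes described here were Trem2, Gpnmb, Spp1, Cd9, Cd63, Lgals3, Fabp4, Fabp5, Lpl and Plin2. They were chosen by name, with earlier results of these data known, as rows that carry these symbols in both deposited count tables, and all 10 were found among 54582 shared symbols. RNA sequencing had been done on primary mouse bone marrow-derived macrophages, grown from tibial marrow of animals aged 6 to 8 weeks. The 12 libraries form 4 groups of 3. KO+AC and WT+AC are Kif13b-deficient and wild-type macrophages given apoptotic cells (AC) of the human T cell leukaemia line Jurkat for 90 min at 5 apoptotic cells per macrophage. KO and WT are macrophages of the same genotypes without apoptotic cells, in DMEM with serum. The labels call the altered genotype both homozygous null and a knock down, and give its serum as 12, 13 and 14% in KO 1, KO 2 and KO 3, against 10, 10 and 11% in WT 1, WT 2 and WT 3. Serum and genotype therefore cannot be told apart without apoptotic cells, if these labels hold. Whether a group's 3 libraries are separate animals or separate cultures is not stated, so p-values measure the spread between libraries, which may be technical.

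Lipid-associated macrophages are a state named from obese fat tissue and known also from atheroma, fatty liver and the neurodegenerating brain. They take up lipid and dead cells, and their gene set centres on TREM2, a surface receptor for lipids, lipoproteins and apoptotic cells that signals through the adaptor TYROBP and the kinase SYK. The genes around it encode lysosomal and membrane glycoproteins (Gpnmb, Cd9, Cd63), secreted proteins (Spp1, Lgals3, Lpl) and cytosolic carriers and coats of lipid (Fabp4, Fabp5, Plin2). Kif13b encodes a microtubule motor of the kinesin family.

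Total counts ran from 17160248 to 17285594 in KO+AC, 17000976 to 17256902 in WT+AC, 18351051 to 18770757 in KO and 18256622 to 18461359 in WT libraries. The lowest count of any of the 10 genes in any library was 7146, for Fabp4. Kif13b had 281, 345 and 424 counts in KO, against 599, 546 and 535 in WT libraries. In the libraries labelled KO+AC the gene had 1697, 1697 and 1721 counts, against 1600, 1561 and 1634 in WT+AC, which is higher in the libraries labelled KO+AC (log2 fold change 0.13, edgeR adjusted p = 0.0261). That call ended without WT+AC 2 (edgeR adjusted p = 0.147), KO+AC 1 (0.0765) or KO+AC 2 (0.0612), under scaling by total counts (0.151) and in a joint fit of the 12 libraries (0.671). No source used here names the exons removed, so whole-gene counts do not check the label, and every direction with apoptotic cells below is that of the libraries so labelled. The libraries with and without apoptotic cells stand in separate deposited tables, so the condition and the table cannot be told apart. The 8 macrophage markers were detected in every library, with sums of 15440 to 15729 CPM in KO+AC, 12773 to 13550 in WT+AC, 30546 to 38054 in KO and 30060 to 32587 in WT libraries. CPM stands for counts scaled to a library of 1e6 counts. Most of each sum was Lyz2, with means of 10736 CPM in KO+AC, 8956 in WT+AC, 28671 in KO and 25121 in WT. Of the 8 markers, 4 were called higher and 4 lower in KO+AC against KO, and 3 higher and 5 lower in WT+AC against WT. Of all genes, 86.3% and 85% were called there. In KO+AC against WT+AC 5 of the 8 were called higher and 0 lower, where 6.58% and 4.75% of all genes were. The 7 adipocyte markers, Adipoq, Plin1 and Lep among them, summed to at most 1.30 CPM, although Fabp4, Lpl and Plin2 are also fat cell genes. KO 1 and KO 2 stood apart from KO 3: their log2 values, relative to the mean of the 6 libraries, fell with exonic length (r = -0.533 and -0.302 across genes), whereas in KO 3 (0.317) and the WT libraries (0.204 to 0.368) they rose with it.

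The 10 genes together took 3.88 to 3.92% of all counts in KO+AC, 4.13 to 4.27% in WT+AC, 5.98 to 6.47% in KO and 5.22 to 5.53% in WT libraries. Gpnmb alone took 2.14% on average in KO+AC, 2.24% in WT+AC, 2.74% in KO and 2.15% in WT. By count Gpnmb ranked 1 of all symbols in KO+AC, 1 in WT+AC, 2 in KO and 4 in WT. Levels of different genes can be set side by side only per length, here as CPM per kb of the principal transcript. On that scale Lgals3 led in KO (11471 ± 1915 CPM per kb, SD, n = 3) and WT (8764 ± 194), and Gpnmb followed with 8945 ± 431 in KO and 6507 ± 520.0 in WT. With apoptotic cells Gpnmb led, with 5203 ± 110.2 CPM per kb in KO+AC and 5177 ± 222 in WT+AC, ahead of Lgals3 with 3182 ± 70.2 and 3096 ± 104. Spp1 stood next in both groups with apoptotic cells, at 1927 ± 6.09 CPM per kb in KO+AC and 2734 ± 27.1 in WT+AC. Plin2 was lowest with apoptotic cells, at 382 ± 7.61 in KO+AC and 396 ± 7.89 in WT+AC. Above it stood Fabp4 (484 ± 28.9 in KO+AC and 412 ± 6.12 in WT+AC) and Trem2 (451 ± 13.9 and 418 ± 19.9), which lay within 1 SD of each other in WT+AC. Without apoptotic cells Lpl was lowest in KO (745 ± 145) and Fabp4 in WT (816 ± 40.8), and these are next to each other in both groups, within their spread in WT, where Lpl had 906 ± 101.

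**Figure D1:**
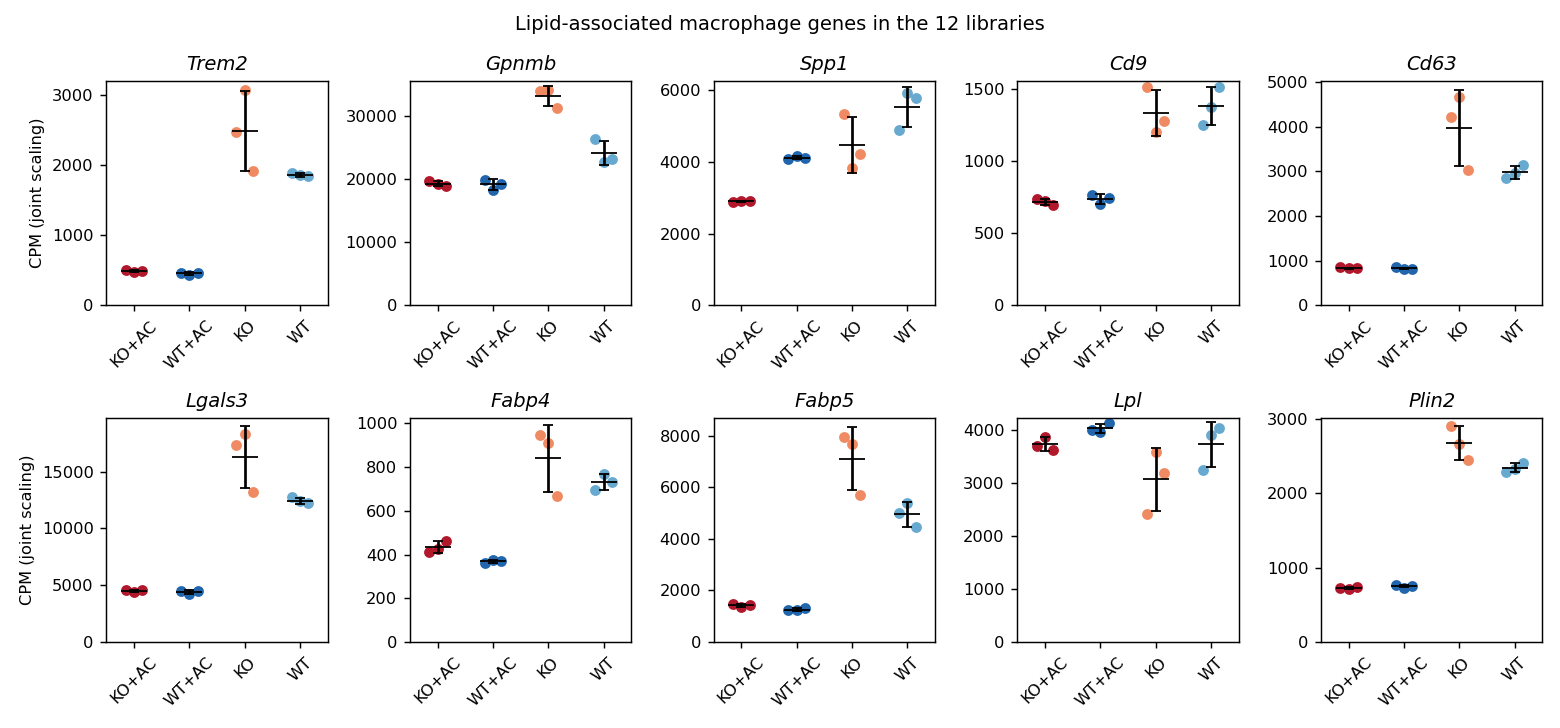
CPM of each of the 10 genes (linear axis from 0, scaled over all 12 libraries) in KO+AC, WT+AC, KO and WT. Each point is a library, and lines give the group mean and SD. Trem2, Cd63, Lgals3, Fabp5 and Plin2 sit far lower with apoptotic cells, Lpl does not, and KO+AC libraries sit below WT+AC for Spp1.

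Spp1, which encodes the secreted matrix protein and cytokine osteopontin, was the member with the largest genotype difference in macrophages given apoptotic cells. It fell to 3277, 3309 and 3286 CPM in KO+AC libraries, against 4701, 4773 and 4762 CPM in WT+AC (CPM scaled within the 6 libraries with apoptotic cells, as in all KO+AC and WT+AC values of the genotype comparison). The 3 KO+AC libraries lay within a narrow band and well below all WT+AC libraries. The log2 fold change was -0.53 (SE 0.03, edgeR adjusted p = 8.93e-18), which is a level 1.44-fold lower, and 95.5% of the genes tested differed by less in size. It passed the test in 13 of 13 alternative fits, with values of -0.58 to -0.50 and adjusted p of at most 0.00856. Osteopontin is also made by osteoclasts and stromal cells. Beside the marker counts that follow, 4.75% of all genes tested were called lower and 6.58% higher in KO+AC. The 8 osteoclast markers summed to 964 to 967 CPM in KO+AC, against 1037 to 1105 in WT+AC, with 5 of 6 tested members lower. The 8 fibroblast markers summed to 265 to 285 CPM in KO+AC, against 384 to 422 in WT+AC, with 5 of 7 tested members lower. The 6 monocyte markers summed to 64.6 to 67.8 CPM in KO+AC, against 38.9 to 40.5 in WT+AC, with 2 of 6 higher. The part of these in the Spp1 value, or in those of the other members, was not tested. In bulk RNA, fewer cells of a type and less RNA per cell cannot be told apart. Spp1 lies on chromosome 5 (GRCm38, chr5:104435118-104441050, plus strand). Its 1 overlapping annotated gene, Gm42793 on the same strand, held 11 to 22 counts per library. The principal transcripts and gene bodies used were those of GENCODE vM21.

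The 250 bases before the RefSeq start (GRCm38.p6) are shown for Spp1, Gpnmb and Trem2, whose differences below were the largest in the comparison of genotypes with apoptotic cells, in the interaction and with apoptotic cells. The promoter table held 7 of the 10 genes, without Fabp4, Fabp5 and Lpl. Capitals mark matches, on either strand, to 4 motifs: CACGTG (E-box core), TGANTCA (AP-1 site), GAGGAAG (ETS site of the kind bound by PU.1) and AGGTCA (nuclear receptor element).
Spp1, chr5:104434861-104435110, plus strand: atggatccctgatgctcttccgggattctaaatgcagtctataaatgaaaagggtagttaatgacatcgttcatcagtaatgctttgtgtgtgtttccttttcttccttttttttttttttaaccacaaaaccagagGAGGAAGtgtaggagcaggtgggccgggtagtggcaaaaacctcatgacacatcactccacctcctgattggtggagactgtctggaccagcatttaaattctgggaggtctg
Gpnmb, chr6:49036268-49036517, plus strand: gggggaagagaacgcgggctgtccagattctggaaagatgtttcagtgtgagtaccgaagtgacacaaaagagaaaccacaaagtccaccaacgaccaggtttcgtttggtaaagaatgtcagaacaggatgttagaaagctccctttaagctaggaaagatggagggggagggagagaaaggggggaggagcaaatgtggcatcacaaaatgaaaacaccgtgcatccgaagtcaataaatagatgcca
Trem2, chr17:48346151-48346400, plus strand: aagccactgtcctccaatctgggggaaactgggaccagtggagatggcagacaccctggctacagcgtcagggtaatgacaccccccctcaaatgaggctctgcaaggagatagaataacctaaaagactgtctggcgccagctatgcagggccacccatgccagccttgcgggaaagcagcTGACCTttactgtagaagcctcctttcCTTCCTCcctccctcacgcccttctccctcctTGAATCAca
The Spp1 window held 1 ETS match. The Trem2 window held a nuclear receptor, an ETS and an AP-1 match, none of which overlap, and the Gpnmb window held no match to these 4. Among the 7 genes GAGGAAG was found in 3 (Cd63, Spp1 and Trem2), AGGTCA in 2 (Plin2 and Trem2), TGANTCA in 1 (Trem2) and CACGTG in 0. Of all 32851 promoter windows of the same length, 10.6% held GAGGAAG, 14% AGGTCA, 6.75% TGANTCA and 6.02% CACGTG.

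The other secreted proteins moved less between genotypes with apoptotic cells. Lpl, the lipase that frees fatty acids from lipoproteins (chr8:68880491-68907448, plus strand), was lower in KO+AC, with 4179, 4401 and 4085 CPM, against 4615, 4542 and 4769 CPM in WT+AC. The groups did not overlap, and the difference was small, -0.14 on the log2 scale (SE 0.03, edgeR adjusted p = 0.00384). Leaving out WT+AC 3 ended the Lpl call (edgeR adjusted p = 0.0566). Lgals3, which encodes galectin-3, a sugar-binding protein that marks damaged lysosomes (chr14:47367751-47386160, plus strand), had 5184, 5003 and 5163 CPM in KO+AC, against 5145, 4846 and 5193 CPM in WT+AC. These overlapped, with a difference of 0.02 (SE 0.03, edgeR adjusted p = 0.847).

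Both fatty acid binding protein genes were higher in KO+AC. Fabp4 encodes the carrier known from fat cells and macrophages (chr3:10204088-10208576, minus strand), and had 469, 483 and 523 CPM in KO+AC, against 418, 429 and 427 CPM in WT+AC. Fabp5, its relative on the same chromosome (chr3:10012548-10016607, plus strand), had 1646, 1554 and 1622 CPM in KO+AC, against 1423, 1404 and 1518 CPM in WT+AC. Every KO+AC library lay above every WT+AC library for both genes. The Fabp5 copy Fabp5l2 held at most 55 counts in a library. The log2 differences were 0.21 for Fabp4 (SE 0.04, edgeR adjusted p = 1.59e-05) and 0.15 for Fabp5 (SE 0.03, adjusted p = 0.00141). Plin2, which encodes the coat protein of lipid droplets (chr4:86648386-86670060, minus strand), had 819, 803 and 831 CPM in KO+AC, against 876, 839 and 870.1 CPM in WT+AC. The KO+AC libraries all lay below, but the difference of -0.08 did not pass the test (edgeR adjusted p = 0.134), though it did under scaling by total counts (-0.12, adjusted p = 0.00111).

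Of the 10 genes, 2 rose and 2 fell in KO+AC against WT+AC, where 11.3% of the 16467 genes tested were called (6.58% higher and 4.75% lower). Under scaling by total counts 2 were called higher and 4 lower, Cd9 (-0.10, edgeR adjusted p = 0.00942) and Plin2 beside Spp1 and Lpl, where 3.95% of all genes were higher and 8.34% lower. KO+AC and WT+AC libraries did not overlap for 5 of the 10, as for 26.4% of all genes. The median log2 difference was -0.01 for the 10 genes and -0.02 for all genes tested. Every one of the 10 had at least 7146 counts in each library. Shares and medians of all genes tested, here and for KO against WT below, were not matched to them in level. The receptor and the membrane glycoproteins did not pass the test under TMM scaling: Trem2 differed by 0.09 (SE 0.04, edgeR adjusted p = 0.105), Gpnmb by -0.02 (0.846), Cd9 by -0.06 (0.330) and Cd63 by -0.01 (0.935). The spread behind these values was narrow, with a biological coefficient of variation of 0.0294. When the 12 libraries were fitted together, so that all groups shared 1 spread, only Spp1 of the 4 remained called, and Fabp4 (adjusted p = 0.43), Fabp5 (0.668) and Lpl (0.849) did not.

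**Figure D2:**
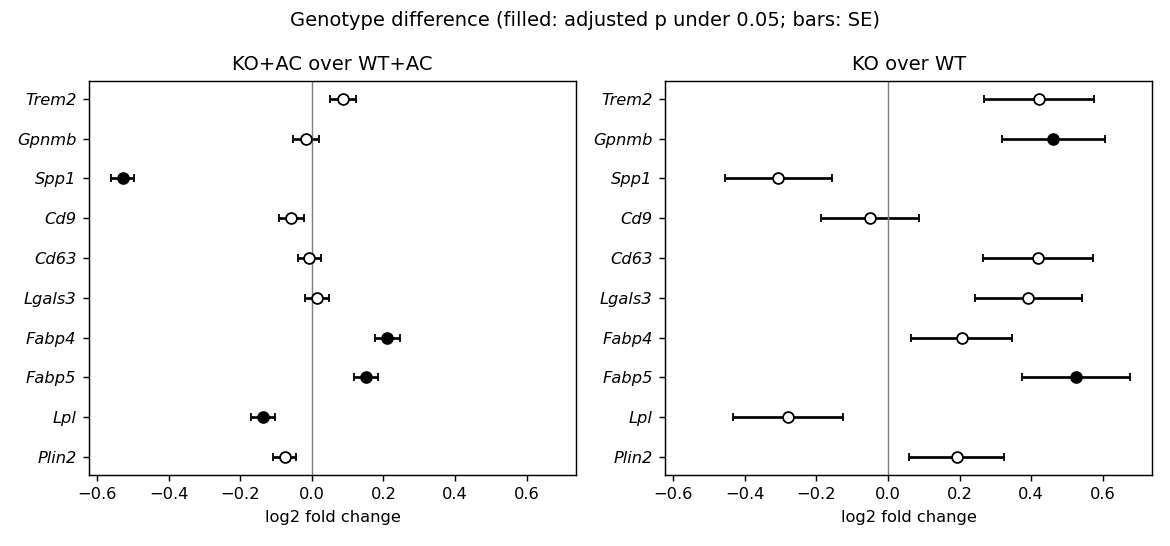
Log2 fold changes of the 10 genes, KO+AC over WT+AC and KO over WT, with bars of 1 SE from the edgeR fits and filled points for adjusted p under 0.05. Spp1 lies lowest with apoptotic cells at -0.53, and the bars without apoptotic cells are several times wider.

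Without apoptotic cells, Gpnmb and Fabp5 were higher in KO than in WT macrophages. Gpnmb, a glycoprotein of lysosomes and the cell surface (chr6:49036546-49070929, plus strand), rose to 29326, 29439 and 26799.5 CPM in KO libraries, against 22540.4, 19553 and 20035 CPM in WT (CPM scaled within these 6 libraries). All KO libraries lay above all WT libraries, and the log2 fold change was 0.46 (SE 0.14, edgeR adjusted p = 0.0331). Fabp5 rose to 6844, 6646 and 4884 CPM in KO, against 4284, 4642 and 3834 CPM in WT, a log2 fold change of 0.53 (SE 0.15, adjusted p = 0.0234). KO 3 was the lowest KO library for both genes on this scale. By share of all counts it was the highest for Gpnmb, at 2.79%, against 2.67% in KO 1 and 2.75% in KO 2. Of the 10 genes 2 rose and 0 fell, where 16.2% of the 12640 genes tested were called (7.94% higher and 8.24% lower). Under scaling by total counts 2 were called higher and 1, Spp1, lower, where 2.82% of all genes were higher and 10% lower. KO libraries lay above WT without overlap for 5 genes, as for 16.4% of all genes, and the median log2 difference was 0.30 for the 10 genes, against 0.02 for all.

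These calls turned on single libraries. The Gpnmb call was kept without KO 3 (adjusted p = 0.00191) and ended without KO 1 (0.0839), KO 2 (0.107), WT 1 (0.0605), WT 2 (0.189) or WT 3 (0.198), with log2 values of 0.42 to 0.53 throughout. The Fabp5 call ended without KO 1 (0.107), KO 2 (0.076), WT 1 (0.0635) or WT 3 (0.155), with values of 0.44 to 0.62. Without KO 3, 6 of the 10 genes were called. The number called over all genes also moved, from 2045 in the main fit to between 312 and 4166 with 1 library left out. The 6 is therefore not a result about these members alone. With both KO 1 and KO 2 left out, which leaves KO 3 as the only KO library, the values were 0.37 for Gpnmb and 0.20 for Fabp5.

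**Figure D3:**
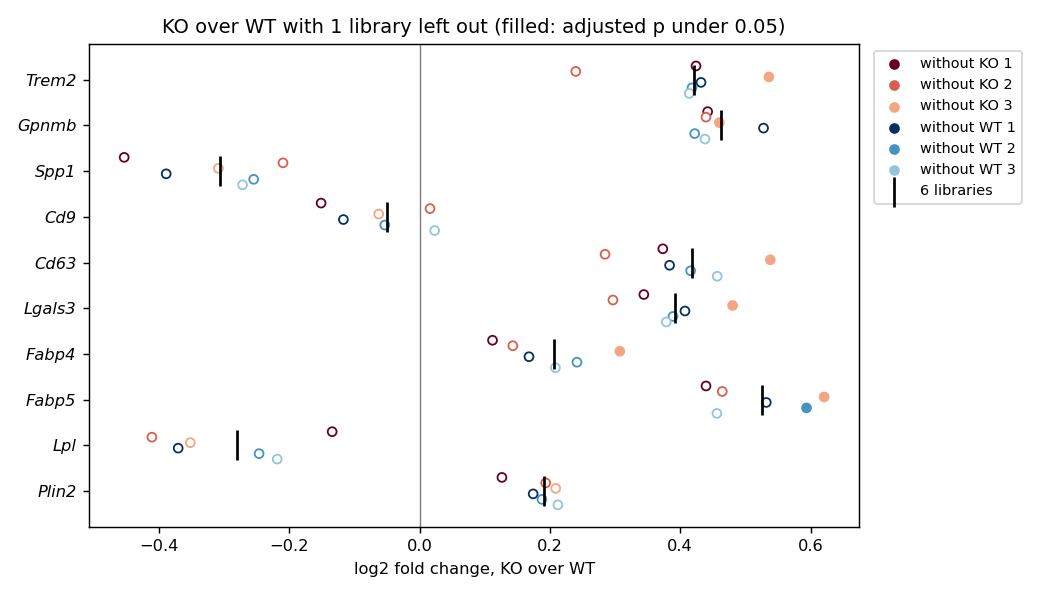
Log2 fold change KO over WT, without apoptotic cells, for each of the 10 genes. The vertical line is the fit of 6 libraries, each circle a fit with 1 library left out, filled where the adjusted p was under 0.05. Values without KO 3 lie highest for Trem2, Cd63, Lgals3, Fabp4 and Fabp5, and most filled circles are those without KO 3.

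The remaining members did not pass the test without apoptotic cells. Trem2 had 2137, 2654 and 1641 CPM in KO, against 1624, 1594 and 1586 CPM in WT, a difference of 0.42 (SE 0.15, edgeR adjusted p = 0.0588). The tetraspanin Cd63, a protein of late endosomes and exosomes (chr10:128900989-128912822, plus strand), had 3641, 4038 and 2599.7 CPM in KO, against 2436, 2555 and 2700.0 CPM in WT (0.42, adjusted p = 0.0601). For both genes KO 1 and KO 2 were high and KO 3 lay within or just above the range of the WT libraries. Over 14 alternative fits the values ran from 0.04 to 0.54 for Trem2 and from 0.02 to 0.54 for Cd63. Each was called in 4 of the 14. Lgals3 had 14947, 15831 and 11306 CPM in KO, against 10918, 10654 and 10512 CPM in WT (0.39, edgeR adjusted p = 0.0709), and its difference was 0.07 after a correction for exonic length and GC content. Fabp4 had 817, 788 and 571 CPM in KO, against 595, 659.8 and 632 CPM in WT (0.21, edgeR adjusted p = 0.315). Here KO 3 was the lowest of the 6 libraries, and the value was -0.14 with KO 1 and KO 2 left out. That was the lowest of 14 alternative fits, the highest was 0.51, and 2 of the 14 called Fabp4. Plin2 lay above WT in every KO library by a small amount, with 2504, 2296 and 2098 CPM in KO and 1964, 2004 and 2073 CPM in WT (0.19, edgeR adjusted p = 0.323).

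Spp1 and Lpl leaned the other way without apoptotic cells, short of the threshold. Spp1 had 4605, 3326 and 3632 CPM in KO, against 4200.3, 5101 and 4996 CPM in WT, a difference of -0.31 (SE 0.15, edgeR adjusted p = 0.152). KO 1 overlapped the WT libraries. Spp1 was called lower under scaling by total counts (-0.42, edgeR adjusted p = 0.0275) and in the joint fit of 12 libraries (-0.31, adjusted p = 0.026). Lpl had 2082, 3102 and 2737 CPM in KO, against 2788, 3353 and 3475 CPM in WT (-0.28, edgeR adjusted p = 0.203), with KO 1 the lowest. Cd9, a tetraspanin that organises membrane receptors (chr6:125460266-125494791, minus strand), had 1302, 1040.5 and 1096 CPM in KO and 1074, 1182 and 1306 CPM in WT, with a difference of -0.05 (edgeR adjusted p = 0.825). Of the overlapping plus-strand genes, Gm28809 held 1 to 10 and Gm26728 0 to 10 counts per library, and no source used here states whether counting used strand. The 8 fibroblast markers summed to 931 to 1216 CPM in KO, against 621 to 768 in WT, with 5 of 8 higher. The 6 monocyte markers summed to 26.7 to 28.5 CPM in KO, against 45.2 to 49.2 in WT, with 1 of 4 tested higher and 2 lower. Of all genes tested, 7.94% were called higher and 8.24% lower. The part of fibroblasts and monocytes in the members' values was not tested.

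Macrophages given apoptotic cells had lower levels of most of these genes in both genotypes (CPM scaled over all 12 libraries from here on). Trem2 (chr17:48346401-48354147, plus strand) fell furthest, to 504, 474 and 494 CPM in KO+AC, against 2479, 3068 and 1915 CPM in KO, which is 5.07-fold lower (log2 -2.34, SE 0.11, edgeR adjusted p = 9.86e-17). In wild-type cells Trem2 had 466, 429 and 467 CPM in WT+AC, against 1893, 1853 and 1839 CPM in WT, 4.10-fold lower (log2 -2.03, SE 0.11, edgeR adjusted p = 2.31e-15). No library with apoptotic cells came near one without them. Fabp5 followed, with 1418 ± 45.3 CPM in KO+AC and 7107 ± 1227 in KO (5.01-fold lower, log2 -2.32), and 1257 ± 48.9 in WT+AC and 4946 ± 478 in WT (3.93-fold lower, log2 -1.98). Cd63 averaged 834 ± 12.0 CPM in KO+AC and 3975 ± 846 in KO (log2 -2.25), and 824 ± 21.1 in WT+AC and 2981 ± 145 in WT (log2 -1.85). Its processed pseudogene Cd63-ps held 24 to 32 counts in KO+AC, 24 to 33 in WT+AC, 145 to 188 in KO and 118 to 133 in WT, a small number beside those of Cd63.

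Plin2 and Lgals3 were next. Plin2 averaged 721 ± 14.4 CPM in KO+AC and 2669 ± 228 in KO (log2 -1.89, SE 0.09), and 748 ± 14.9 in WT+AC and 2341 ± 57.6 in WT (log2 -1.65, SE 0.08). Lgals3 averaged 4515 ± 99.6 CPM in KO+AC and 16277 ± 2717 in KO (log2 -1.85, SE 0.10), and 4394 ± 148 in WT+AC and 12436 ± 275 in WT (log2 -1.50, SE 0.10). Fabp4 and Cd9 fell by less. Fabp4 averaged 434 ± 25.9 CPM in KO+AC and 842 ± 153 in KO (log2 -0.96), and 369 ± 5.48 in WT+AC and 731 ± 36.6 in WT (log2 -0.99). Cd9 averaged 719 ± 20.9 CPM in KO+AC and 1331 ± 160.1 in KO (log2 -0.89), and 736 ± 34.0 in WT+AC and 1379.9 ± 131 in WT (log2 -0.91). All 4 passed the edgeR test in both genotypes, and all of their libraries with apoptotic cells lay below those without.

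Spp1, Gpnmb and Lpl moved least. Spp1 averaged 2904 ± 9.17 CPM in KO+AC and 4475 ± 775 in KO (log2 -0.62, edgeR adjusted p = 2.27e-06), and 4119.7 ± 40.9 in WT+AC and 5541 ± 560.3 in WT (log2 -0.43, adjusted p = 0.000325). Both calls were lost when libraries were scaled by total counts, with log2 values of -0.18 and -0.02. Gpnmb averaged 19255 ± 408 CPM in KO+AC and 33106 ± 1594 in KO (log2 -0.78, edgeR adjusted p = 2.76e-09). In wild-type cells it averaged 19158 ± 823 CPM in WT+AC and 24083 ± 1925 in WT (log2 -0.33, edgeR adjusted p = 0.000891), a direction that turned to 0.07 under scaling by total counts. Lpl averaged 3725 ± 132 CPM in KO+AC and 3065 ± 596 in KO (log2 0.28, edgeR adjusted p = 0.0176), and 4029.9 ± 87.4 in WT+AC and 3726 ± 417 in WT (log2 0.11, adjusted p = 0.327). The rise of Lpl in KO+AC ended without KO 1 (log2 0.11, adjusted p = 0.286) and without KO+AC 2 (0.0716), and its log2 values were -0.03 in KO+AC and -0.02 in WT+AC after a correction for exonic length and GC content. Under scaling by total counts Lpl was called higher in both, at 0.72 in KO+AC (edgeR adjusted p = 9.26e-07) and 0.52 in WT+AC (8.69e-05).

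In KO+AC against KO, 9 of the 10 genes fell and 1 rose, against a background of 86.3% of 16810 genes called (49.6% up and 36.7% down). In WT+AC against WT, 9 fell and 0 rose, against 85% of genes called (48.3% up and 36.7% down). The 16810 genes include some with few or no counts without apoptotic cells, where 12640 passed the filter alone. Such genes can hardly fall, so the shares and medians of all genes, here and for the lists below, are not matched in level to the members. The 9 genes that fell had no overlap between libraries in either genotype, as 36.6% of all genes in KO+AC and 37.4% in WT+AC lay below without overlap. Under scaling by total counts 8 of the 10 genes fell and 1 rose in KO+AC, and 7 fell and 1 rose in WT+AC. That scaling left 26.9% and 26.1% of all genes lower, since it moved the median of all genes by 0.44 and 0.40 on the log2 scale. The median log2 change of the 10 genes was -1.40 in KO+AC and -1.24 in WT+AC, against 0.32 and 0.25 for all genes. All 10 lay below the median of all genes in both genotypes under TMM scaling. DESeq2 size factors and total counts moved all genes by nearly the same amount, so they could hardly change this and are no check of it. The log2 changes of all genes were correlated with exonic length (r = -0.265 in KO+AC and -0.306 in WT+AC across genes). They did not run evenly with it. The shortest 1 in 8 genes had medians of 4.32 in KO+AC and 4.51 in WT+AC. The longest 1 in 8 had 0.98 and 0.74, also above the medians of all genes. A correction for length and GC content made most of the falls smaller. Plin2 was then at -1.02 in KO+AC and -0.85 in WT+AC, Fabp5 at -1.60 and -1.24, Cd63 at -1.42 and -1.17, Fabp4 at -0.73 and -0.49, and Cd9 at -0.38 and -0.44, all still called by edgeR. The libraries with apoptotic cells also had counts for 31787 to 32309 symbols in KO+AC and 32256 to 32801 in WT+AC, against 18335 to 18520 in KO and 18533 to 18540 in WT. The 8 T cell markers summed to 54.2 to 60.7 CPM in KO+AC and 55.9 to 66.7 in WT+AC, against 1.59 to 3.19 in KO and 1.30 to 1.92 in WT. The fibroblast markers summed to 265 to 285 CPM in KO+AC and 384 to 422 in WT+AC, against 931 to 1216 in KO and 621 to 768 in WT. Of these 8, 7 were lower and 1 higher in KO+AC, and 6 lower and 2 higher in WT+AC. The osteoclast markers summed to 964 to 967 CPM in KO+AC and 1037 to 1105 in WT+AC, against 2039 to 2457 in KO and 1636 to 2078 in WT. Of 6 tested, 4 were lower and 1 higher in KO+AC (median log2 change -0.62). In WT+AC 2 were lower and 2 higher (median 0.06), so the lower sum was not shared by the list. The part of these, and of the Jurkat cells' RNA, in the members' values was not tested.

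**Figure D4:**
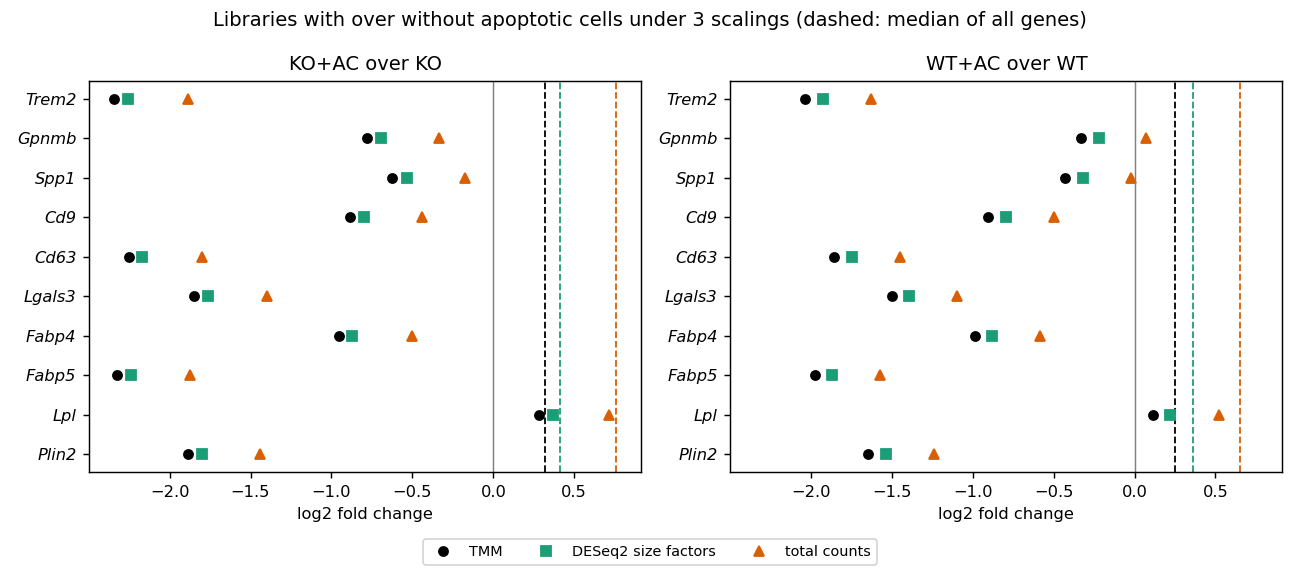
Log2 fold changes of the 10 genes under TMM, DESeq2 size factors and total counts, for KO+AC over KO and WT+AC over WT, with dashed lines at the median of all genes. All 10 lie left of the median of the same scaling. Each gene moves to the right by about as much as the median does, so this could hardly change with the scaling.

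Gpnmb was the only one of the 10 genes whose response to apoptotic cells differed between genotypes by the test of the interaction. Its log2 change was -0.78 in KO+AC against KO and -0.33 in WT+AC against WT, an interaction of -0.45 (SE 0.12, edgeR adjusted p = 0.0143). In levels, KO libraries were above WT without apoptotic cells, and KO+AC and WT+AC averaged 19255 ± 408 and 19158 ± 823 CPM. The call ended without WT 2 (adjusted p = 0.054) or WT+AC 1 (0.0529), with values of -0.41 and -0.42. Of the 10 genes 1 was called, where 12.7% of 16810 genes were (7.55% higher and 5.13% lower), and the median was -0.27, against -0.03 for all genes. Cd63 (-0.40, edgeR adjusted p = 0.0795), Lgals3 (-0.35, 0.0925), Fabp5 (-0.35, 0.113), Trem2 (-0.31, 0.201) and Plin2 (-0.24, 0.181) had negative values that did not pass. Spp1 did not differ detectably in its response (-0.20, SE 0.14, edgeR adjusted p = 0.407), and Lpl (0.17), Fabp4 (0.03) and Cd9 (0.02) lay closest to 0.

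The genes whose levels over the 12 libraries ran most like those of Trem2, Gpnmb and Spp1 were ranked by the mean absolute difference of centred log2 CPM, among 8193 genes averaging 10 CPM or more. Closest to Trem2 were Vamp8 (0.048), which encodes a SNARE protein of late endosomal fusion, Ten1 (0.049), of the telomere-binding CST complex, and Fis1 (0.052), of mitochondrial fission. Closest to Gpnmb were 2310022B05Rik (0.054), Gprc5b (0.055), an orphan receptor, and Galns (0.056), a lysosomal sulfatase. Closest to Spp1 were Mmp12 (0.108), the macrophage elastase, Gja1 (0.123), which encodes connexin 43, and Cxcl14 (0.129), a chemokine. The difference over all genes compared had a median of 0.998 for Trem2, 0.444 for Gpnmb and 0.438 for Spp1, so Spp1 had the least close neighbours of these.

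Genes that usually accompany the state were taken from a list of 24, of lysosomal, lipoprotein and phagocytic genes. In KO+AC against WT+AC 7 rose, 6 fell and 11 were not called, where 11.3% of all genes were called, with a median log2 difference of -0.01, against -0.02 for all genes. Mmp12 fell to 6192 ± 207 CPM in KO+AC, against 7729 ± 82.7 in WT+AC, a log2 change of -0.34 (SE 0.03, adjusted p = 6.24e-11) by edgeR. Itgax, the integrin chain CD11c, fell by the edgeR test to 602 ± 23.5 CPM in KO+AC, against 740.2 ± 18.2 in WT+AC, log2 -0.32 (SE 0.03, adjusted p = 5.20e-10). Ctsl, a lysosomal protease, also fell, log2 -0.29 (SE 0.03, adjusted p = 2.29e-09) by edgeR. In KO against WT 5 of 23 tested rose and 2 fell, where 16.2% of all genes were called, with a median of 0.19, against 0.02 for all genes. They were led by Syngr1 at 0.75 (SE 0.14, adjusted p = 0.00275), Ctsl at 0.60 (SE 0.15, adjusted p = 0.0106) and Lgals1, galectin-1, at 0.66 (SE 0.17, adjusted p = 0.0160), all by edgeR. Ctsl was thus called in opposite directions in the genotype comparisons, and its interaction was -0.87 (SE 0.13, adjusted p = 9.09e-05) by edgeR.

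With apoptotic cells this list fell in most of its members, 19 of 24 in KO+AC against KO and 18 of 24 in WT+AC against WT, with 4 and 6 higher, where 36.7% of all genes were lower in each genotype. Its medians were -1.18 and -1.06, against 0.32 and 0.25 for all genes. Apoe, the apolipoprotein secreted by macrophages, had 3467 ± 185 CPM in KO+AC and 13708 ± 1600.3 in KO, and 2795 ± 74.1 in WT+AC and 13170.1 ± 769 in WT, with edgeR log2 changes of -1.98 (SE 0.09, adjusted p = 5.10e-17) and -2.24 (SE 0.10, adjusted p = 5.32e-18). Clec7a, the receptor dectin-1, changed by -2.04 (SE 0.09, adjusted p = 8.42e-18) and -1.74 (SE 0.09, adjusted p = 3.02e-16), by edgeR. Olr1, a receptor for oxidised lipoprotein, went the other way, with 473 ± 11.6 CPM in KO+AC and 0.850 ± 0.508 in KO, and 422 ± 11.3 in WT+AC and 1.65 ± 0.552 in WT. Its log2 changes were 9.08 (SE 0.18, adjusted p = 5.33e-25) and 7.99 (SE 0.16, adjusted p = 1.24e-24) by edgeR.

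Among 11 genes of TREM2 signalling and shedding, 2 rose and 0 fell in KO+AC against WT+AC, where 11.3% of all genes were called. They were Adam17, a protease that sheds TREM2 from the surface, at 0.27 (SE 0.03, adjusted p = 1.87e-08), and Syk at 0.18 (SE 0.03, adjusted p = 0.000203), by edgeR. In KO against WT, Adam10, the other shedding protease, fell, at -0.63 (SE 0.14, adjusted p = 0.00709), and Hcst, which encodes the adaptor DAP10, rose, at 0.71 (SE 0.21, adjusted p = 0.0324) by edgeR, of 10 tested, where 16.2% of all genes were called. With apoptotic cells the receptor's adaptor and its kinase went apart. Tyrobp averaged 738 ± 19.0 CPM in KO+AC and 4263 ± 1077 in KO, and 683 ± 15.9 in WT+AC and 3181 ± 48.6 in WT, whereas Syk averaged 1246 ± 50.7 in KO+AC and 257 ± 29.9 in KO, and 1085 ± 37.5 in WT+AC and 248 ± 25.1 in WT. The edgeR log2 changes were -2.53 (SE 0.12, adjusted p = 2.08e-16) and -2.22 (SE 0.12, adjusted p = 3.51e-15) for Tyrobp, and 2.28 (SE 0.10, adjusted p = 4.52e-18) and 2.13 (SE 0.10, adjusted p = 2.27e-17) for Syk. Of the 11 genes 6 rose and 4 fell in KO+AC, and 5 rose and 5 fell in WT+AC, near the 86.3% and 85% of all genes called. The medians were 0.45 and 0.07, against 0.32 and 0.25 for all genes. Between genotypes the medians were 0.09 in KO+AC against WT+AC and -0.04 in KO against WT, against -0.02 and 0.02 for all genes.

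Of 27 genes for lipid droplets, lipases and fatty acids, 20 were tested between the genotypes. In KO+AC against WT+AC 2 rose and 0 fell: Acsl1, an acyl-CoA synthetase, at 0.39 (SE 0.04, adjusted p = 4.29e-09), and Fabp3, another fatty acid carrier, at 0.27 (SE 0.05, adjusted p = 0.000103), by edgeR. That is 2 of 20, near the 11.3% of all genes called. Fabp3 averaged 44.3 ± 2.29 CPM in KO+AC and 36.1 ± 0.941 in WT+AC, so 3 fatty acid binding genes, Fabp3, Fabp4 and Fabp5, were called higher there. Fabp4 and Fabp5 lost that call in the joint fit, and Fabp3 was at -0.32 in KO against WT, where it was not called. In KO against WT 5 rose and 1 fell, where 16.2% of all genes were called, with Mgll, which splits monoglycerides, at 0.77 (SE 0.13, adjusted p = 0.000818), the acyl-CoA synthetase Acsl4 at -0.60 (SE 0.12, adjusted p = 0.00432) and the apolipoprotein gene Apoc1, at a low level, at 1.44 (SE 0.32, adjusted p = 0.00676), by edgeR. With apoptotic cells 7 rose and 13 fell in KO+AC, and 7 rose and 11 fell in WT+AC, of 21 tested, where 36.7% of all genes were lower in each genotype and 86.3% and 85% were called either way. The medians were -0.55 and -0.58, against 0.32 and 0.25 for all genes. Between genotypes they were 0.02 in KO+AC against WT+AC and 0.13 in KO against WT, against -0.02 and 0.02 for all genes. Angptl4, which encodes a secreted inhibitor of the Lpl enzyme, had 1.13 ± 0.0749 CPM in KO+AC and 13.9 ± 1.47 in KO, and 1.15 ± 0.390 in WT+AC and 9.10 ± 1.30 in WT, with log2 changes of -3.60 (SE 0.18, adjusted p = 2.69e-16) and -2.97 (SE 0.19, adjusted p = 4.32e-14) by edgeR.

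Osteopontin acts through integrins and CD44, and these were taken with other tetraspanins and galectins in a list of 17. Of these 5 rose and 3 fell in KO+AC against WT+AC, where 11.3% of all genes were called. The integrin chain Itgav rose, at 0.19 (SE 0.03, adjusted p = 5.02e-05), its partner Itgb3 fell, at -0.27 (SE 0.07, adjusted p = 0.00807), and the tetraspanin Cd82 rose, at 0.26 (SE 0.04, adjusted p = 4.94e-06), by edgeR. In KO against WT 4 of 16 rose and 2 fell, where 16.2% of all genes were called, with Tspan7, a tetraspanin, at 0.87 (SE 0.17, adjusted p = 0.00275), Itga4 at -0.64 (SE 0.16, adjusted p = 0.0129) and Itgav at -0.54 (SE 0.14, adjusted p = 0.0160) by edgeR. With apoptotic cells Cd44 rose to 1370.5 ± 33.1 CPM in KO+AC, against 279 ± 20.5 in KO, and to 1244 ± 35.3 in WT+AC, against 335 ± 15.3 in WT, by edgeR log2 changes of 2.29 (SE 0.09, adjusted p = 3.00e-19) and 1.89 (SE 0.08, adjusted p = 1.80e-17). Itgav rose as well by the edgeR test, to 298 ± 6.87 CPM in KO+AC, against 44.1 ± 10.6 in KO, and to 257 ± 4.70 in WT+AC, against 64.3 ± 1.72 in WT. Of the 16 tested, 5 rose and 8 fell in KO+AC, and 6 rose and 8 fell in WT+AC, where 86.3% and 85% of all genes were called. The medians were -0.14 and -0.11, against 0.32 and 0.25 for all genes. Between genotypes they were 0.06 in KO+AC against WT+AC and 0.11 in KO against WT, against -0.02 and 0.02 for all genes.

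Of 20 transcriptional regulators tied to lipid handling and macrophage identity, 19 were tested. Of these 3 rose and 1 fell in KO+AC against WT+AC, where 11.3% of all genes were called, led by Mitf, a regulator of lysosomal genes and of Gpnmb, at 0.23 (SE 0.04, adjusted p = 2.37e-05), Hif1a at 0.20 (SE 0.04, adjusted p = 0.000112) and Tfe3 at 0.13 (SE 0.04, adjusted p = 0.0205), by edgeR. In KO against WT, where 16.2% of all genes were called, 1 rose and 2 fell: Hif1a at -0.57 (SE 0.14, adjusted p = 0.0106), Mitf at -0.43 (SE 0.13, adjusted p = 0.0311) and the oxysterol receptor Nr1h3 at 0.41 (SE 0.13, adjusted p = 0.0385), by edgeR. Hif1a had 816, 723 and 1166 counts in KO, against 1314, 1429 and 1523 in WT. Mitf had 651, 742 and 1009 in KO, against 1203, 1054 and 1187 in WT. KO 3 thus lay nearest to WT for both. Calls of single genes in this and the other lists were not followed through the fits with libraries left out. Mitf and Hif1a were the 2 members called for the interaction, where 12.7% of all genes were, at 0.69 (SE 0.14, adjusted p = 0.00197) and 0.80 (SE 0.15, adjusted p = 0.000963) by edgeR, and both were called higher in KO+AC against WT+AC and lower in KO against WT. With apoptotic cells 8 rose and 7 fell in each genotype, where 86.3% and 85% of all genes were called. The medians were 0.14 in KO+AC and -0.0022 in WT+AC, against 0.32 and 0.25 for all genes. Between genotypes they were 0.08 in KO+AC against WT+AC and -0.06 in KO against WT, against -0.02 and 0.02 for all genes.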

How the data were processed

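RNA was polyA-selected and sequenced as paired-end reads, per the labels. The authors deposited raw read counts per gene symbol, 1 column per library, in a table of the 6 libraries without and a table of the 6 with apoptotic cells; 0 columns were left unused. The submitters' processing notes name mm10, HISAT2 2.0.5, fastp and DESeq2 1.20.0, and no source used here names the counting tool or its strand setting.

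Genotypes were compared within each table, and apoptotic cell effects and the interaction in 1 fit of 12 libraries on 54582 shared symbols. The two-sided quasi-likelihood test of edgeR 4.0.16 (R 4.3.3) was used after filterByExpr by group and TMM scaling, with Benjamini-Hochberg adjusted p under 0.05 over all genes tested. Alternatives were DESeq2 1.42.0, its size factors, no filter, total counts, a length and GC correction, a replicate block, a joint fit and libraries left out; total counts and leaving out KO 1 with KO 2 were added after seeing the data. The fit was tested on simulated data. Lengths and positions come from GENCODE vM21 (GRCm38). The members and the 14 lists were chosen with earlier results of these data known. Named were all 10 members, up to 3 called genes of a list per comparison by smallest p, and the 3 genes closest in pattern to Trem2, Gpnmb and Spp1.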

Additional observations from a re-analysis of the deposited data

Results flagged for a closer look

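Gpnmb was set aside for a closer look because its response to apoptotic cells differed between the genotypes by a test of that difference. The interaction was -0.45 on the log2 scale (edgeR adjusted p = 0.0143), from a change of -0.78 in KO+AC against KO and -0.33 in WT+AC against WT. Its size was -0.57 to -0.41 when single libraries were left out, and -0.38 without both KO 1 and KO 2 (edgeR adjusted p = 0.00939). Groups of 3 libraries were too small for a test of single outlying libraries.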

How the results depend on the processing

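The falls of Trem2, Cd63, Lgals3, Fabp5, Plin2, Fabp4 and Cd9 with apoptotic cells, in both genotypes, and of Spp1 in KO+AC against WT+AC kept their direction and call in every alternative run, though the length and GC correction brought Plin2 to -1.02 in KO and -0.85 in WT. The 2 members called in KO against WT became 5 with DESeq2, 4 without a filter, 3 under total counts, 6 in the joint fit, 1 with the replicate block, 0 without KO 1 and KO 2, and 0 to 6 with 1 library left out. All genes called there numbered 2045, but 738 after the length and GC correction, 3999 in the joint fit, 95 without KO 1 and KO 2 and 312 to 4166 with 1 library left out. In KO+AC against WT+AC the 4 members became 6 under total counts and 1 in the joint fit, and the 1866 genes 1239 with DESeq2, 157 in the joint fit and 1192 to 2142 with 1 library left out. For the interaction, 1 member became 2 without a filter, 2 without KO 1 and KO 2, and 0 to 6 with 1 library left out. The 2132 genes there became 1043 without KO 1 and KO 2 and 1129 to 4330 with 1 library left out. The replicate block ended the Gpnmb call in KO against WT (edgeR adjusted p = 0.0517) and moved its gene count to 2496, with correlations of same-numbered libraries of -0.204, -0.0014 and 0.112, so the numbers were not taken to pair libraries. Directions turned for small values. In KO against WT, Fabp4 was -0.14 without KO 1 and KO 2, and Cd9 ran from -0.151 to 0.023 with 1 library left out. In KO+AC against WT+AC, Gpnmb was 0.0072 in the joint fit and -0.051 to 0.014 with 1 library left out. Cd63 was 0.0046 with DESeq2 and with its size factors, 0.0048 without a filter, 0.016 in the joint fit and -0.027 to 0.013 with 1 library left out. Lgals3 was -0.031 under total counts and -0.014 to 0.036 with 1 library left out. With apoptotic cells in wild type, Gpnmb was 0.074 under total counts, and Lpl was -0.023 after the length and GC correction (-0.030 in KO). For the interaction, Trem2 was 0.058 without KO 1 and KO 2. Cd9 was -0.0033 with DESeq2 and with its size factors, -0.012 without a filter and -0.094 to 0.087 with 1 library left out. Fabp4 was -0.00068 without a filter, -0.24 after the length and GC correction and -0.113 to 0.090 with 1 library left out, and Lpl -0.0067 after that correction and -0.011 to 0.259 with 1 library left out. The joint fit shares 1 spread over 12 libraries, and other causes of these shifts were not tested. Members had 7146 counts or more per library, and where libraries lay close together, as for Spp1 in KO+AC (CV 0.316%), counting error was not small beside their spread.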

Other observations

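The 10 genes did not all run together over the 12 libraries. By the mean absolute difference of centred log2 CPM, Trem2 and Cd63 were the closest pair (0.075), followed by Trem2 and Fabp5 (0.088) and by Lgals3 and Plin2 (0.095). All pairs among Trem2, Cd63, Lgals3, Fabp5 and Plin2 lay 0.075 to 0.254 apart. The medians over all genes compared were 0.752 for Lgals3 to 0.998 for Trem2 among these. Lpl stood farthest from the other members, at 1.19 from Trem2 and 0.379 from its nearest, Spp1. Fabp4 and Fabp5 were 0.589 apart. These distances are over libraries that share 2 conditions and 2 tables, and are given as a description.

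Outside the rule for named genes, the closest genes of the other members were looked up as well and chosen after their values were seen. Closest to Cd63 were the ribosomal protein genes Rps9 (0.031), Rpl10a (0.044) and Rpl27a (0.044), and closest to Plin2 was Rpl5 (0.045), ahead of the elongation factor gene Eef1b2 (0.049). Closest to Lgals3 were Aprt (0.033), Cope (0.033) and Rpl3 (0.039). Closest to Fabp5 was Gpx1 (0.046), a peroxide-reducing enzyme. Lpl ran closest to 5730455P16Rik (0.065) and Tnrc6b (0.070), which encodes a partner of Argonaute.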
